A study of Mus musculus with 6 samples.

Results

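The 9 genes described here are the receptors and regulators through which hormones act on luminal epithelium, the inner cell layer of mammary and other glands. They were picked by symbol from the 23358 entries of the gene count table and comprised Esr1, Pgr, Prlr, Stat5a, Stat5b, Gata3, Foxa1, Nr3c1 and Vdr, and all 9 passed the filter on low counts. In FSP1-Cre;NT3 tumors the estrogen receptor gene Esr1 lay at 6.10 times its level in Osx-Cre;NT3 tumors, and the progesterone receptor gene Pgr and the transcription factor gene Gata3 were also higher in every FSP1-Cre;NT3 tumor than in any Osx-Cre;NT3 tumor, a separation that 9.03% of all genes showed. With edgeR's quasi-likelihood test, 0 of the 9 passed an adjusted p of 0.05 between the lines, and over all 16415 genes tested the share called was also 0%. At an unadjusted p under 0.05 there were 3 of 9, against 10.8% of all genes, and DESeq2 called 1 of 9, Esr1, against 2.56%. The vitamin D receptor gene Vdr was at 113 CPM (a library-scaled count, below) in a single perineal tumor and at most 36.9 CPM in the other 5.

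The tumors arose spontaneously in female mice, 1 tumor from each of 6 animals, and are named by mouse number. All 6 mice carried NT3, a form of NF-κB inducing kinase (NIK) without the domain that binds TRAF3, placed in the ROSA26 locus behind a STOP cassette that Cre removes. In Osx-Cre;NT3 mice, of mixed C57Bl/6J and CD1 background crossed to C57Bl/6J NT3 mice, the Osterix promoter drove Cre once doxycycline chow was withdrawn at weaning, and tumors 13, 18 and 25 were trunk tumors with latencies of 150, 168 and 115 days. In FSP1-Cre;NT3 mice, from C57Bl/6J NT3 females and FVB/n males with Cre under the S100a4 promoter, tumor 27 was perineal (101 days), tumor 29 was from the trunk (72 days) and tumor 36 was perineal (52 days). The S100a4 promoter is not limited to fibroblasts, and cells of the myeloid lineage can use it too. Line, strain background, doxycycline and latency therefore differed together and cannot be told apart, site differed with line in part, and no normal tissue was used here. According to the study's methods, the average RNA integrity number was lower for the Osx-Cre;NT3 tumors, and what part this had in any difference was not tested.

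Esr1, Pgr, Nr3c1 and Vdr belong to the nuclear receptors, proteins that bind a hormone and then DNA. Estrogen acting on Esr1 induces Pgr in mammary luminal cells and uterus. Prlr is the receptor for prolactin at the cell surface. It signals through the kinase Jak2 to Stat5a and Stat5b, which switch on milk protein genes. Gata3 maintains the luminal lineage, and Foxa1 opens chromatin at which the estrogen receptor binds. Nr3c1 is the glucocorticoid receptor of nearly all cells, and Vdr is active in the epidermis and hair follicle as well as in gut and bone.

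Total counts ranged from 51824408 to 163297772 per tumor and every count was even, so a count of 2 may stand for 1 sequenced pair. A count of 3 corresponded to 0.0184 to 0.0579 CPM, where CPM is the count scaled to library size with TMM, edgeR's correction for composition. Intervals and limits of this kind cover counting error only, and the limits lie higher than stated if each pair was counted as 2. Genes that mark basal keratinocytes, among them Krt5 at 2591 to 6087 CPM and Krt14 at 1637 to 4105 CPM, were abundant in all 6 tumors. Tumor 36 stood apart in several marker lists, and counts that changed without it are given both ways.

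The sequences before the transcription starts are shown for 5 members, for Pgr, Vdr and Esr1 because they varied most between tumors, for Prlr and Foxa1 because their windows held a motif of a factor among the 9 genes. RefSeq promoter windows (GRCm38.p6), cut to the 250 bases before each start, matched 8 members in 13 windows, all members but Nr3c1. Bases that GENCODE M21 places in exons were removed, so some windows are shorter, and a window of Esr1 that lay wholly in exons is not shown. Capitals mark a match to TTC and GAA 3 bases apart (STAT) in Esr1 and Prlr, and a match to TGTTTAC or its reverse complement (FOXA) in Prlr and Foxa1. The coordinates are chr9:8899583-8899832 on the plus strand for Pgr, chr10:4709908-4710154 on the plus strand for an internal start of Esr1, chr15:10223656-10223905 on the plus strand for an internal start of Prlr, chr12:57546122-57546361 on the minus strand for Foxa1 and chr15:97908311-97908546 on the minus strand for Vdr.
Pgr: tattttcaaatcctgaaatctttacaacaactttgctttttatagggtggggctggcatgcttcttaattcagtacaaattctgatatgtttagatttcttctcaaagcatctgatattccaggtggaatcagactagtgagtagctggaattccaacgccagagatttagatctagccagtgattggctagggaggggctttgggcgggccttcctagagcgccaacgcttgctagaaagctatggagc
Esr1: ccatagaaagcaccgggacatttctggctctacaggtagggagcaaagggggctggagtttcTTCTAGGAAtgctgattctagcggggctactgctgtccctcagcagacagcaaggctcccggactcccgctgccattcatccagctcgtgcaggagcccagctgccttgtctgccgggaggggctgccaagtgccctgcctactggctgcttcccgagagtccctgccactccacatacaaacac
Prlr: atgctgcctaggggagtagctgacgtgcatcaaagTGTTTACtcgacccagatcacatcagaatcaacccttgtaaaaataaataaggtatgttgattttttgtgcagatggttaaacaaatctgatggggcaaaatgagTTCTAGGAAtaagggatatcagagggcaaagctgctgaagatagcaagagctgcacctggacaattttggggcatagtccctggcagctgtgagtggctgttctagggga
Foxa1: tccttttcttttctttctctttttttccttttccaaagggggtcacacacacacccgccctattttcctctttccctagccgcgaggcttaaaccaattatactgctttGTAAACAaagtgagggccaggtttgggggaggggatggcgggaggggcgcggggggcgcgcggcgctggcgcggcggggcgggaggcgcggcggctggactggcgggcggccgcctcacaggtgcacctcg
Vdr: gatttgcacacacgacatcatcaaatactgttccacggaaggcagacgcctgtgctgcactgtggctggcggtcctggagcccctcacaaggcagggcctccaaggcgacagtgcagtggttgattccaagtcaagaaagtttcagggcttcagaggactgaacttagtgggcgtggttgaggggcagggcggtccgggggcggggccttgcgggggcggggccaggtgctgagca

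Both strands were searched in all windows, before exon bases were removed, and no match overlapped another. The STAT letters were present in 2 of the 13 member windows and in 7.02% of 32851 windows of the same length over all genes. In Esr1 they lay at positions -188 to -180 from the start and in Prlr at -110 to -102. The FOXA letters were in 2 member windows, at -141 to -135 in Foxa1 and at -215 to -209 in Prlr, against 3.17% of all windows. The NF-κB letters GGGA and CC, 4 bases apart, were in a window each of Gata3 and Stat5a, against 17.6% of all windows. In both genes this match lay in bases that GENCODE places in exons. The estrogen receptor pair GGTCA and TGACC and the progesterone and glucocorticoid receptor pair GNACA and TGTNC, each 3 bases apart, matched no member window and 0.0639% and 0.387% of all windows. Repeats of AGGTCA or AGTTCA 3 bases apart (vitamin D receptor) matched no member window and 0.00609% and 0% of all windows, and the GATA letters AGATAA matched no member window and 9.99% of all windows. Such matches describe letters in these windows and do not show binding.

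Per unit of length, the STAT5 and glucocorticoid receptor genes lay far above the sex steroid receptors. Mean RPKM, reads scaled to gene length and library size, was 13.8 ± 4.38 (SD, n = 6) for Stat5a and 13.5 ± 3.06 for Nr3c1. Foxa1 followed at 6.39 ± 2.31, Vdr at 6.05 ± 7.55 and Stat5b at 4.76 ± 0.944, and then Gata3 at 0.882 ± 0.516, Esr1 at 0.840 ± 0.735, Prlr at 0.516 ± 0.216 and Pgr at 0.0890 ± 0.140. Of the neighbors in this order, only Stat5b and Gata3 had ranges that did not overlap, and Stat5b exceeded Gata3 in all 6 tumors by 3.05 to 11.2 times. Stat5a exceeded Nr3c1 in 3 of 6 tumors, Esr1 exceeded Prlr in 3, Gata3 exceeded Esr1 in 4 and Vdr exceeded Stat5b in 2, so those orders hold for the means and not in every tumor. Pgr had the lowest RPKM of the 9 in every tumor. Among all genes Stat5a stood at the 81.2 percentile of mean RPKM and Pgr at the 29.5 percentile.

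**Figure D1:**
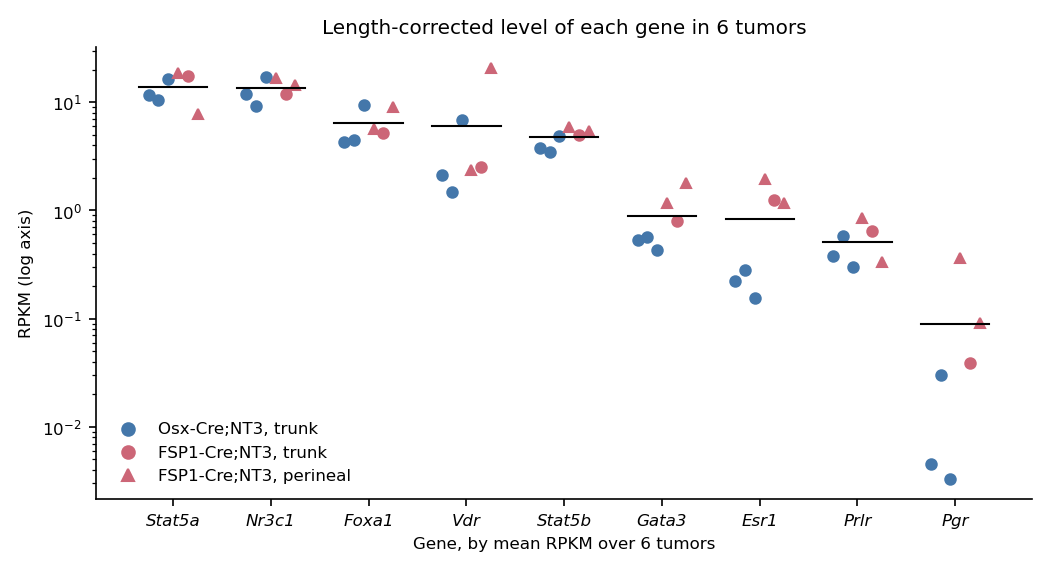
RPKM on a log axis (vertical) of the 9 genes (horizontal, ordered by mean) in 6 tumors, with circles for trunk, triangles for perineal tumors, blue for Osx-Cre;NT3, red for FSP1-Cre;NT3 and a black line at the mean. The 5 genes on the left, from Stat5a at 13.8 to Stat5b at 4.76, lie above the other 4 in their means, and the red points of Esr1 and Gata3 lie above the blue ones.

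Esr1 (chr10:4612046-5003761, mm10), which encodes estrogen receptor alpha, separated the lines most evenly. Its level was 1.28, 1.60 and 0.817 CPM in tumors 13, 18 and 25 and 9.58, 6.77 and 6.28 CPM in tumors 27, 29 and 36. The lowest FSP1-Cre;NT3 tumor was thus well above the highest Osx-Cre;NT3 tumor, and the trunk tumor 29 alone was at 4.24 times that tumor. Osx-Cre;NT3 tumors averaged 1.23 ± 0.393 CPM and FSP1-Cre;NT3 tumors 7.54 ± 1.78 CPM (each SD over n = 3), a log2 difference of 2.61 ± 0.41 (SE). edgeR gave an unadjusted p of 0.000417, the 17th lowest of 16415, and an adjusted p of 0.402, whereas DESeq2 gave an adjusted p of 5.44e-08. Leaving out each tumor in turn kept the log2 difference between 2.33 and 2.84, and trunk tumors alone gave 2.45 ± 0.58, with tumor 29 as the only FSP1-Cre;NT3 sample and assumed to vary like the others. Between sites the log2 difference was 1.59 ± 0.82 (edgeR adjusted p = 0.543) and the ranges overlapped, since tumor 29 lay among the perineal tumors. Within FSP1-Cre;NT3 tumors it was 0.22 ± 0.57.

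Pgr (chr9:8899833-8968611), the progesterone receptor, was barely detected in Osx-Cre;NT3 tumors. It had 2, 42 and 2 counts in tumors 13, 18 and 25, which is 0.0414, 0.273 and 0.0282 CPM, and 186, 26 and 50 counts in tumors 27, 29 and 36, which is 2.85, 0.333 and 0.782 CPM. Tumors 13 and 25 were under the limit of 3 counts, and tumor 29 was at 1.22 times tumor 18, so the ranges were apart by little. The log2 difference between lines was 3.42 ± 1.16 (SE), with an adjusted p of 0.458 by edgeR and 0.0831 by DESeq2. It ran from 2.13 without tumor 27 to 5.19 without tumor 18. DESeq2 called Pgr without tumor 18 (adjusted p = 0.00581) and without tumor 29 (adjusted p = 0.0429). Between sites both perineal tumors exceeded all 4 trunk tumors, and the log2 difference was 3.38 ± 1.02 with an edgeR adjusted p of 0.324 and a DESeq2 adjusted p of 0.0669. Trunk tumors alone left a line difference of 1.45 ± 1.48, and FSP1-Cre;NT3 tumors alone left a site difference of 2.44 ± 1.29.

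Genes that estrogen or progesterone is known to induce were followed as a list of 7, all tested. Between lines 2 were higher at an unadjusted p under 0.05 and 0 were lower, 0 passed the adjusted test with edgeR or DESeq2, and the median log2 difference was 0.32, against 0.01 over all genes. Over all genes 10.8% had an unadjusted p under 0.05 between lines and 10.5% between sites, where DESeq2 called 3.56%. The 3 most abundant were Ccnd1, a cell cycle gene, at 253.5 to 645 CPM, Wnt4, a Wnt ligand, at 100.6 to 276 CPM, and Xbp1, a secretory cell factor, at 117 to 248 CPM, and the line ranges of each overlapped. The 2 with a low p were Greb1, an estrogen receptor cofactor, and Areg, an EGF receptor ligand, and both are named after their values were seen. Greb1 was 0.207, 0.390 and 0.366 CPM in tumors 13, 18 and 25 and 1.35, 0.462 and 1.501 CPM in tumors 27, 29 and 36. Areg was 12.8 CPM in tumor 36 and at most 0.829 CPM elsewhere, and without tumor 36 the list had 0 genes with a low p between lines. Between sites 2 were higher at an unadjusted p under 0.05 and DESeq2 called the same number. The called genes were Greb1 (adjusted p = 0.0217) and Areg (adjusted p = 0.000657). The median site difference was 0.56, and 0.26 without tumor 36, with tumor 27 as the only perineal tumor.

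Prlr (chr15:10177238-10349180), the prolactin receptor, overlapped between groups. It was 6.79, 10.3 and 4.96 CPM in tumors 13, 18 and 25 and 13.0, 10.8 and 5.57 CPM in tumors 27, 29 and 36. Tumors 27 and 29 lay above the highest Osx-Cre;NT3 tumor, and tumor 36 fell within the Osx-Cre;NT3 range. The log2 difference was 0.41 ± 0.43 between lines and 0.17 ± 0.48 between sites (edgeR adjusted p = 0.697 and 0.911), and the second turned negative with line as a covariate, at -0.24. GENCODE places Gm21973 over Prlr on the same strand, and how its reads were assigned was not tested.

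Stat5a (chr11:100859351-100885169) had its lowest level in tumor 36. It was 60.5, 53.7 and 78.0 CPM in tumors 13, 18 and 25 and 82.9, 85.0 and 37.8 CPM in tumors 27, 29 and 36. Its close relative Stat5b (chr11:100780731-100850585) was steadier, at 27.6, 25.1 and 32.6 CPM in the Osx-Cre;NT3 tumors and 36.6, 33.9 and 36.8 CPM in the FSP1-Cre;NT3 tumors. The FSP1-Cre;NT3 range of Stat5b lay wholly above, by a narrow margin, with the smallest spread of all 9 genes at a coefficient of variation of 14.9%. The log2 difference between lines was 0.10 ± 0.34 for Stat5a and 0.33 ± 0.19 for Stat5b (edgeR adjusted p = 0.913 and 0.493), and DESeq2 called Stat5b only when tumor 25 was left out (adjusted p = 0.0150), a fit that called 21.7% of all genes. The ratio of Stat5a to Stat5b in RPKM was 2.99 to 3.51 in the 5 other tumors and 1.44 in tumor 36. Of all 100-base words in their GENCODE transcripts, 3.44% of those of Stat5a occurred in Stat5b and 4.79% in the other direction. For 50-base words the shares were 8.21% and 11.0%, so some reads cannot be told apart. The end of Stat5a also overlaps Stat3 on the opposite strand, and whether the counting used strand is not given in the sources used here.

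The prolactin receptor and STAT partners, a list of 18 cytokine receptors, kinases, STATs and inhibitors, held 17 tested genes. Between lines 1 was higher (Stat2) and 0 were lower at an unadjusted p under 0.05, against 10.8% of all genes. DESeq2 called 0, and the median log2 difference was 0.09. The 3 most abundant were Il6st, the receptor chain gp130, at 142 to 624 CPM, Stat3 at 127 to 337 CPM and the kinase Jak1 at 139 to 203 CPM. Jak2, the kinase that acts directly under Prlr, was even at 123 to 151 CPM. Prolactin itself (Prl) was 0.0260 CPM in tumor 18 and had 0 counts in the other 5, which allows up to the limit of 3 counts in each. Stat2, Jak2 and Prl are named after their values were seen. Between sites 3 of the 17 were higher at an unadjusted p under 0.05, against 10.5% of all genes, and DESeq2 called Socs3 (adjusted p = 0.00140), an inhibitor of JAK kinases also named after its values were seen, which was 16.6, 20.4, 25.5 and 18.1 CPM in the trunk tumors 13, 18, 25 and 29 and 50.3 and 44.9 CPM in the perineal tumors 27 and 36. The median site difference of the list was 0.21, and 0.35 without tumor 36, with tumor 27 as the only perineal tumor. Between lines the count without tumor 36 was 0.

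Of 7 known prolactin and STAT5 targets 6 were tested, and their median log2 difference between lines was -0.04. Between lines 1 was higher at an unadjusted p under 0.05 (10.8% of all genes in either direction, 10.5% between sites). This was Pim1, a survival kinase named after its values were seen, with 7.08, 10.2 and 8.93 CPM in Osx-Cre;NT3 and 20.7, 11.0 and 22.5 CPM in FSP1-Cre;NT3 tumors. Without tumor 36 the count was 0. Among the 3 most abundant, the beta-casein gene Csn2 was 209.5, 82.3 and 347 CPM in tumors 13, 18 and 25 and 115, 111 and 56.6 CPM in tumors 27, 29 and 36. Csn2 was thus present in all 6 tumors, with ranges that overlapped (log2 difference -1.18, edgeR unadjusted p = 0.0642). Cish and Socs2, STAT5-induced inhibitors, were at 20.6 to 37.9 CPM and 20.3 to 38.5 CPM with overlapping ranges. The whey acidic protein gene Wap, another milk protein, was at most 0.104 CPM (named after its values were seen). Between sites 1 of the 6, Pim1 again, was higher at an unadjusted p under 0.05, and DESeq2 called it (adjusted p = 0.00268). The median site difference was 0.20, and 0.15 without tumor 36, with tumor 27 as the only perineal tumor.

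Gata3 (chr2:9857078-9878600) was the third member, beside Esr1 and Pgr, with an unadjusted p under 0.05 between lines. It was 2.28, 2.42 and 1.72 CPM in tumors 13, 18 and 25 and 4.24, 3.23 and 7.13 CPM in tumors 27, 29 and 36. Each FSP1-Cre;NT3 tumor exceeded each Osx-Cre;NT3 tumor, tumor 29 by the least, at 1.34 times tumor 18. The log2 difference between lines was 1.19 ± 0.42 (adjusted p = 0.458 by edgeR and 0.130 by DESeq2) and between sites 1.23 ± 0.42 (adjusted p = 0.372 and 0.0912). Without tumor 36 the line difference was 0.80 ± 0.36, and trunk tumors alone gave 0.59 ± 0.56. GENCODE has genes over part of Gata3 on both strands, and their part in its counts was not tested.

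Foxa1 (chr12:57540632-57546121) followed neither line nor site. It was 18.3, 19.0 and 37.2 CPM in tumors 13, 18 and 25 and 20.6, 20.8 and 36.0 CPM in tumors 27, 29 and 36, so the high tumors were 25 and 36, 1 of each line. The log2 difference was 0.05 ± 0.38 between lines and 0.24 ± 0.38 between sites, with edgeR adjusted p of 0.959 and 0.831. Without tumor 36 these were -0.26 and -0.21. Foxa1 exceeded Gata3 in RPKM by 4.91 to 21.8 times in the 6 tumors, the last in tumor 25.

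The other GATA and FOXA factors and their cofactors formed a list of 9, of which 6 were tested between lines. At an unadjusted p under 0.05, 2 were higher and 1 was lower, against 10.8% of all genes in either direction. DESeq2 called 2 of the 6, against 2.56% of all genes. Gata2, a factor of endothelial and blood cells among others, was 2.90, 1.44 and 1.61 CPM in tumors 13, 18 and 25 and 9.79, 6.36 and 9.29 CPM in tumors 27, 29 and 36 (DESeq2 adjusted p = 0.000131). Zfpm2, a cofactor of GATA proteins, went the other way, at 4.22, 6.29 and 3.29 CPM against 0.767, 0.308 and 0.907 CPM (log2 difference -2.80, DESeq2 adjusted p = 9.03e-05). Both kept a DESeq2 call without tumor 36 and neither passed with edgeR, and both are named after their values were seen. By abundance the leading 3 were Zfpm1 at 15.1 to 47.3 CPM, Foxa2 at 10.7 to 23.7 CPM and Gata6 at 7.32 to 19.4 CPM, with a median over the list of 0.46. Foxa3 had 11.2 CPM in tumor 36 and at most 0.0779 CPM elsewhere.

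Nr3c1, the glucocorticoid receptor, had the highest mean CPM of the 9 members. It was 100.2, 76.9 and 133 CPM in tumors 13, 18 and 25 and 119, 94.8 and 112 CPM in tumors 27, 29 and 36, and the FSP1-Cre;NT3 range fell inside that of Osx-Cre;NT3. The log2 difference was 0.07 ± 0.24 between lines and 0.19 ± 0.26 between sites (edgeR adjusted p = 0.909 and 0.804). The 8 known glucocorticoid targets, all tested, had a median log2 difference of 0.40 between lines, against 0.01 over all genes. At an unadjusted p under 0.05, 1 was higher (10.8% of all genes in either direction, 10.5% between sites). This gene, Zbtb16, a transcription factor named after its values were seen, was 5.26, 1.78 and 4.98 CPM in Osx-Cre;NT3 and 8.13, 30.8 and 12.2 CPM in FSP1-Cre;NT3 tumors, and DESeq2 called it (adjusted p = 0.0377) but edgeR did not, and without tumor 36 DESeq2 called 0 of the 8. Most abundant were Mt2, a metallothionein, at 195 to 669 CPM, Tsc22d3, known as GILZ, at 112 to 179 CPM, and the kinase Sgk1 at 97.2 to 186 CPM. Between sites 2 of the 8 were higher at an unadjusted p under 0.05 and DESeq2 called 0. The median site difference was 0.29, and 0.31 without tumor 36, with tumor 27 as the only perineal tumor.

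Vdr (chr15:97854427-97908296) was far higher in tumor 36 than anywhere else. It was 12.3, 8.59 and 36.9 CPM in tumors 13, 18 and 25 and 11.5, 13.7 and 113 CPM in tumors 27, 29 and 36, and tumor 25 was the next highest. Tumor 36 had 7228 counts, so counting error is small beside this gap. The line and site ranges overlapped, and the log2 differences were 1.26 ± 1.00 and 1.79 ± 0.85 (edgeR adjusted p = 0.603 and 0.518). Without tumor 36 both turned negative, at -0.61 ± 0.64 and -0.64 ± 0.81. By DESeq2 Vdr received neither an unadjusted nor an adjusted p between lines.

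The genes under the vitamin D receptor differed in pattern. Of the 4 listed, 2 were tested, 0 of them with an unadjusted p under 0.05. Their log2 differences between lines had opposite signs, -0.30 for Trpv6 and 0.28 for Hr, with a median of -0.01. Trpv6, a calcium channel, was 2.28, 0.831 and 16.5 CPM in tumors 13, 18 and 25 and 2.03, 2.21 and 11.7 CPM in tumors 27, 29 and 36, high in the same tumors 25 and 36 as Vdr and Foxa1. S100g, a calcium-binding protein, was 6.63 CPM in tumor 36 and at most 0.0779 CPM elsewhere. Hr, the corepressor hairless, was 92.6 to 416 CPM and not raised in tumor 36, at 183 CPM. Cyp24a1, which breaks down vitamin D and is its classical target, was at most 0.0282 CPM (named after its values were seen).

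**Figure D2:**
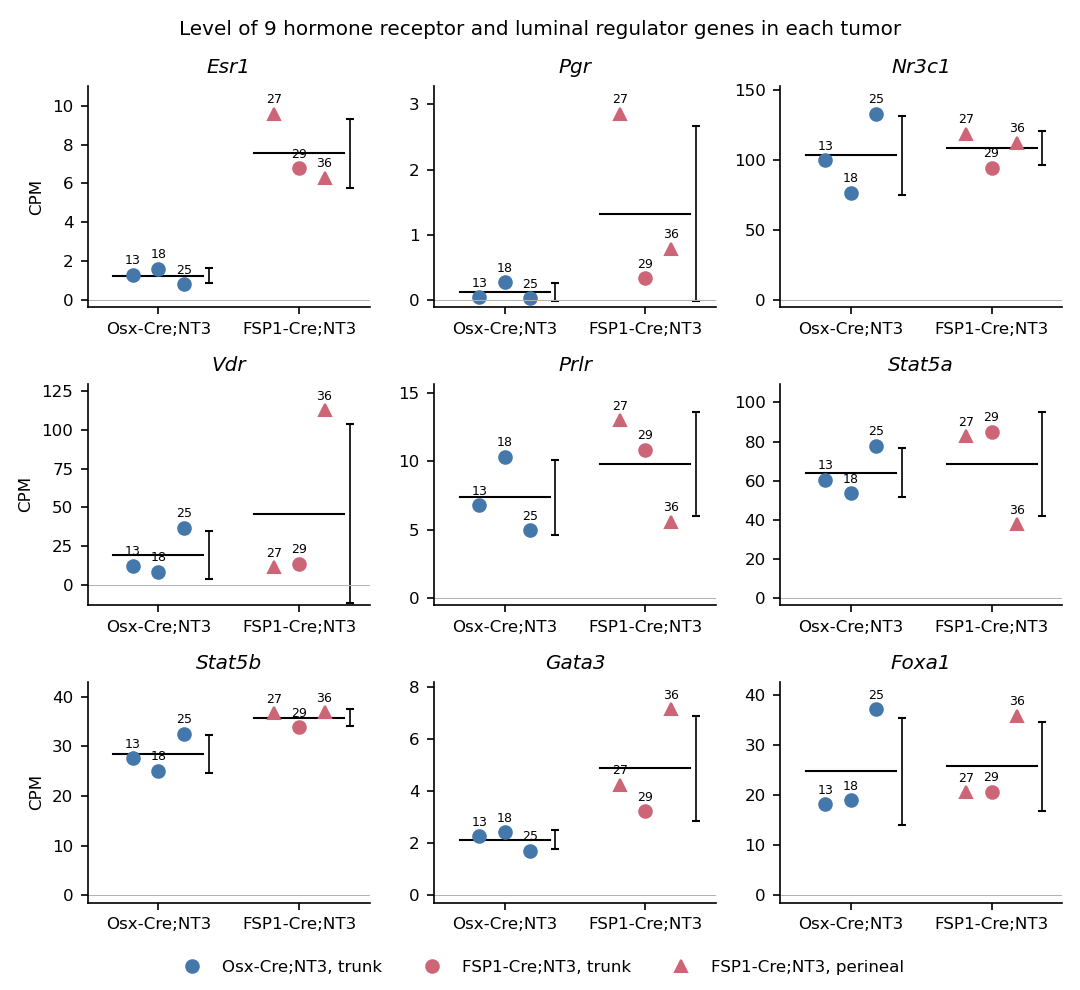
CPM (vertical, linear axis, 1 panel per gene) in the 3 Osx-Cre;NT3 and 3 FSP1-Cre;NT3 tumors, numbered, with triangles for perineal tumors, a line at the mean and a bar of ± 1 SD. For Esr1, Pgr, Stat5b and Gata3 every red point lies above every blue one, for Vdr tumor 36 at 113 CPM stands alone, and for Foxa1 tumors 25 and 36 are high.

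Taking the 9 members as a set, 4 had line ranges that did not overlap and were higher in FSP1-Cre;NT3 (Esr1, Pgr, Stat5b and Gata3), against 9.03% of all genes, and 0 were lower, against 7.97%. At an unadjusted p under 0.05 there were 3 of 9 (Esr1, Pgr and Gata3), all higher, against 10.8% of all genes in either direction and 7.31% higher. This number was 1 without tumor 13, 25 or 27, where the share over all genes was 4.95%, 25.2% and 7.71%. Without tumor 36 it was 2, against 6.25% of all genes. DESeq2 called 1 of 9 (Esr1, higher), against 2.56% of all genes in either direction and 2.14% higher. Without tumor 36 the ranges of 6 members did not overlap (Prlr and Stat5a joined), against 13.5% of all genes. All 9 log2 differences were above 0, as were 51.1% over all genes, but Stat5a, Foxa1, Nr3c1 and Vdr turned negative under some alternatives. The median was 0.41. Between sites 0 of 9 passed with edgeR (0% of all 16971 genes) or DESeq2 (3.56% of all genes, 3.34% higher), and 8 log2 differences were above 0 (48.5% of all genes). By range 3 did not overlap and were higher in perineal tumors (Pgr, Stat5b and Gata3, against 10.3% of all genes) and 0 were lower (9.36%). At an unadjusted p under 0.05 there were 2 of 9 (Pgr and Gata3, against 10.5% in either direction and 8.88% higher). That number was 1 without tumor 13, against 6.46% of all genes. Without tumor 36, tumor 27 was the only perineal tumor left. Of the fits with more than 1 tumor in each site, only that without tumor 29, where line and site coincide, gave DESeq2 calls of members (Esr1 and Pgr). Without tumor 27, tumor 36 was the only perineal tumor, and the DESeq2 log2 difference of Vdr was 2.66. The site comparison shares its tumors with the line comparison and is no separate evidence.

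**Figure D3:**
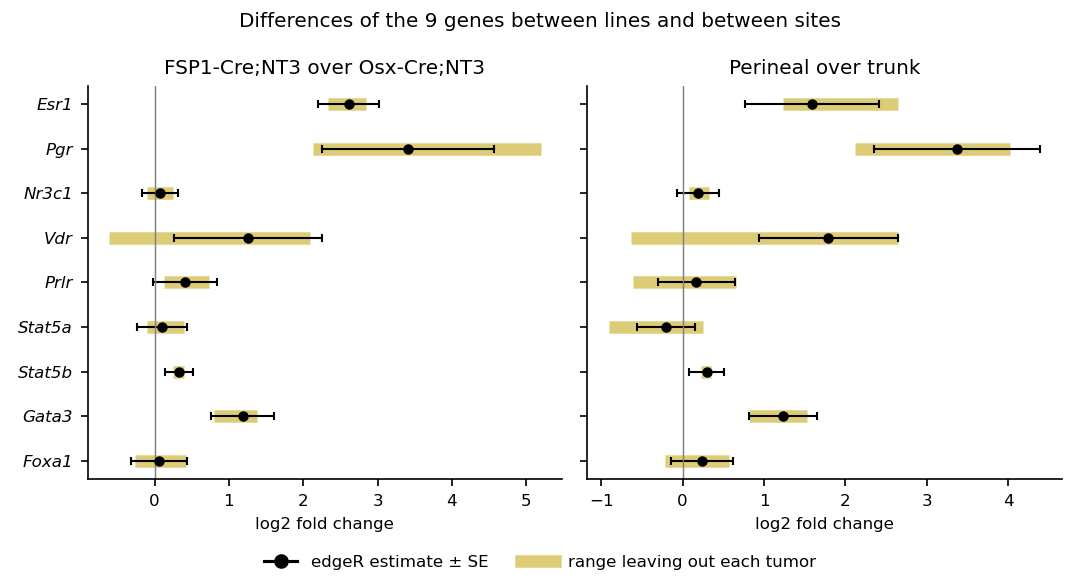
The log2 fold change (horizontal) of the 9 genes between lines (left) and sites (right), with the edgeR estimate ± SE in black and the range over fits that leave out each tumor in yellow. Esr1 lies at 2.61 between lines with a narrow range from 2.33 to 2.84, whereas the ranges of Vdr, Stat5a, Foxa1 and Nr3c1 between lines cross 0.

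The other nuclear hormone receptors formed a list of 13, all tested. Between lines, at an unadjusted p under 0.05, 5 were higher and 1 was lower (10.8% of all genes in either direction), the median log2 difference was 0.64 (0.01 over all genes), and DESeq2 called 1 (2.56%). This was Thra, thyroid hormone receptor alpha, at 17.9, 21.4 and 17.2 CPM in Osx-Cre;NT3 and 29.0, 35.1 and 32.3 CPM in FSP1-Cre;NT3 tumors (DESeq2 adjusted p = 0.0248). The lower one was the retinoic acid receptor Rarb, at 23.8, 25.9 and 32.4 CPM against 17.3, 9.85 and 4.91 CPM. The leading 3 by abundance, the retinoid receptors Rxra at 74.0 to 217 CPM and Rarg at 56.7 to 144 CPM and the orphan receptor Esrra at 51.0 to 78.4 CPM, overlapped between lines. Without tumor 36 the counts were 2 higher and 1 lower with 0 called by DESeq2. Between sites 3 were higher at an unadjusted p under 0.05 and DESeq2 called 1, Nr3c2. The median site difference was 0.42, and 0.27 without tumor 36, with tumor 27 as the only perineal tumor. The second estrogen receptor gene, Esr2, reached at most 0.782 CPM, in tumor 36. Thra, Rarb and Esr2 are named after their values were seen.

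Some receptor and steroid enzyme genes were far higher in tumor 36 than elsewhere. Nr3c2, the mineralocorticoid receptor, was 24.9 CPM there and at most 1.72 CPM elsewhere. Hsd11b2, the enzyme that keeps cortisol-like steroids off that receptor, was 94.0 CPM and at most 1.70 CPM elsewhere. The thyroid hormone receptor beta gene Thrb was 9.04 CPM and at most 1.28 CPM elsewhere. Nr3c2 and Thrb, like Foxa3, Areg, Elf3 and Krt19, were singled out after their values were seen. Among luminal lineage genes, the factor gene Elf3 was 168 CPM in tumor 36 and at most 14.9 CPM elsewhere, and the keratin gene Krt19 1091 CPM and at most 43.4 CPM. Others of that list, Ehf, Tfap2b, Tfap2c, Grhl2 and Cldn4, had their lowest level in tumor 36. For instance Tfap2c was 39.5 CPM there and at least 76.0 CPM elsewhere (also named after its values were seen). Of the members beside Vdr, Gata3 was highest in tumor 36, at 7.13 CPM against at most 4.24 CPM elsewhere, and so by little was Stat5b (36.8 against 36.6 CPM). Esr1, Pgr and Prlr were highest in tumor 27, Foxa1 and Nr3c1 were highest in tumor 25, and Stat5a was lowest in tumor 36.

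**Figure D4:**
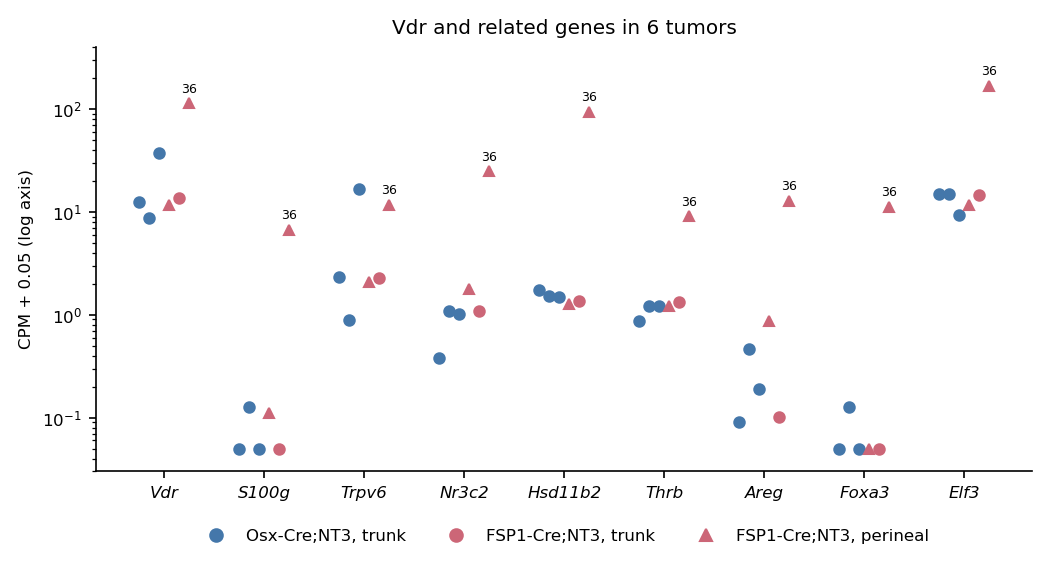
CPM + 0.05 on a log axis (vertical) of Vdr and 8 listed genes (horizontal) in 6 tumors, with symbols as for the RPKM plot and tumor 36 numbered. Nr3c2, Thrb, Areg, Foxa3 and Elf3 were picked after their high values in tumor 36 were seen. In tumor 36 all but Trpv6 had their highest level, for Vdr 113 CPM, while Trpv6 was higher in tumor 25 at 16.5 CPM. The vitamin D targets Hr, at 183 CPM in tumor 36 and 416 CPM in tumor 29, and Cyp24a1, not raised in tumor 36, are not shown.

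The luminal lineage genes, 20 and all tested, had a median log2 difference of 0.04 between lines. At an unadjusted p under 0.05, 2 were higher and 0 lower (10.8% of all genes), and DESeq2 called 1 (2.56%). This was Kit, a receptor kinase of luminal progenitors and mast cells, at 7.99, 10.5 and 10.8 CPM against 31.9, 18.7 and 29.1 CPM (DESeq2 adjusted p = 0.000799, chosen after its values were seen). Highest in mean level were Krt8 at 243 to 2249 CPM, the epithelial factor Ehf at 475 to 833 CPM and Epcam at 174 to 677 CPM. In tumor 36 Krt8 and Epcam had their highest value and Ehf its lowest. Without tumor 36 the counts were 1 higher and 3 lower, against 6.25% of all genes, and DESeq2 called Kit and Epcam, against 1.18%. Between sites 8 of the 20 were higher at an unadjusted p under 0.05 (8.88% of all genes) and DESeq2 called 6 as higher (3.34%). The median site difference was 0.53 in all 6 tumors, and -0.21 without tumor 36, with tumor 27 as the only perineal tumor.

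Of 14 coregulators and chaperones of the nuclear receptors tested between lines, 1 was higher and 1 was lower at an unadjusted p under 0.05, against 10.8% of all genes, DESeq2 called 0, and the median log2 difference was 0.30, against 0.01. The higher one was the coactivator Ncoa1, named after its values were seen, at 14.0, 8.63 and 21.9 CPM in Osx-Cre;NT3 and 32.6, 26.8 and 44.8 CPM in FSP1-Cre;NT3 tumors. Leading in abundance were the chaperones Hsp90ab1 at 1308 to 1923 CPM and Hsp90aa1 at 262 to 488 CPM and the cochaperone Fkbp4, which had the low p, at 681, 513 and 569 CPM in Osx-Cre;NT3 and 397, 428 and 338 CPM in FSP1-Cre;NT3 tumors. Between sites 1 of the 14 was higher at an unadjusted p under 0.05. Without tumor 36 the counts between lines were 1 higher and 0 lower. The median site difference was 0.24, and 0.39 without tumor 36, with tumor 27 as the only perineal tumor. Of 10 genes of hormone metabolism 9 were in the table and 7 were tested. In this list 2 were higher and 1 was lower between lines at an unadjusted p under 0.05 (10.8% of all genes). DESeq2 called 0, and the median of the list was 0.70. Its leading genes by abundance were Srd5a1, the 5-alpha reductase, lower at 158, 215 and 160 CPM against 122, 120 and 57.9 CPM, Hsd11b2, and H6pd, a partner of the enzyme that makes active glucocorticoid, at 23.8, 19.6 and 23.5 CPM against 47.5, 29.0 and 55.4 CPM. Between sites DESeq2 called Hsd11b2 and H6pd, against 3.56% of all genes. Without tumor 36 the line counts were 1 higher and 0 lower with a median of 0.21, and between sites DESeq2 called 0. Cyp19a1, the aromatase that makes estrogen, also named after its values were seen, was at or under the limit of 3 counts in all 6 tumors.

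In these whole-tumor samples, fewer cells of a type and less RNA per cell cannot be told apart. Marker genes of stroma moved with the line. All 6 fibroblast markers had line ranges that did not overlap and were higher in FSP1-Cre;NT3 tumors, against 9.03% of all genes, and their sum was 11545 to 15001 CPM against 5194 to 6742 CPM. For instance Pdgfra, a fibroblast receptor kinase named after its values were seen, was 20.3, 30.0 and 14.9 CPM against 98.5, 41.4 and 109.8 CPM, and the collagen genes Col3a1, Col1a2 and Col1a1 were the 3 most abundant. The part of these cells in the differences of Esr1, Pgr and Gata3 was not tested. With site, 5 of 6 adipocyte markers and 5 of 5 neutrophil markers were higher in both perineal tumors than in any trunk tumor, as were 4 of 5 endothelial markers, against 10.3% of all genes, and the adipocyte sum was 63.6 and 198 CPM in tumors 27 and 36 against 25.1 to 51.9 CPM. The endothelial sum was 361 and 287 CPM in tumors 27 and 36, 247 CPM in tumor 29 and 110 to 241 CPM in the Osx-Cre;NT3 tumors, so it separated both the lines and the sites, and its part in the results was not tested. Beside the values of tumor 36, its smooth muscle and myoepithelial markers summed to 2319 CPM against 240 to 547 CPM elsewhere, its basal keratinocyte markers to 5687 CPM against 9956 to 14247 CPM, and its neutrophil markers to 478 CPM against 21.1 to 163 CPM. T cell, macrophage and endothelial sums of tumor 36 lay within the range of the other tumors. The part of any of these in Vdr, Stat5a or the other values of tumor 36 was not tested.

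The genes whose log2 CPM was most like that of the 3 members with the widest range are a description over 6 tumors that share line and site. For Pgr these were Gm10825 (Pearson r = 0.998) and Serpinc1 (r = 0.992), both under 1 CPM. For Vdr they were Gpr125 (r = 0.999) and Cited2 (r = 0.996), a coactivator-binding protein at 24.8 CPM in tumor 36 and 15.0 to 19.7 CPM elsewhere. For Esr1 they were Mrgprx1 (r = 0.991), under 1 CPM, and Sardh (r = 0.990), at 3.60, 3.92 and 2.76 CPM in tumors 13, 18 and 25 and 6.97, 6.98 and 6.597 CPM in tumors 27, 29 and 36. With r above 0.95 there were 17 genes for Pgr, 67 for Vdr and 63 for Esr1.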

How the data were processed

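RNA-seq of 6 tumors was read from a gene table in which the authors deposited, for every tumor, raw counts per gene and RPKM values. According to the study's methods, reads were trimmed, aligned to mm10 with HISAT2 and counted with featureCounts under standard settings. The labels instead name bcl2fastq, TopHat2 2.0.6 and HTSeq, and the annotation and strand setting are not given in the sources used here. The test across genes was edgeR's quasi-likelihood test (version 4.0.16 under R 4.3.3, with filterByExpr, TMM, glmQLFit, glmQLFTest), applied to the counts for FSP1-Cre;NT3 over Osx-Cre;NT3 (16415 genes) and for perineal over trunk (16971 genes), with no covariate, two-sided, and Benjamini-Hochberg adjustment over all genes tested. DESeq2 1.42.0 and limma 3.58.1 on log2(RPKM + 0.1) gave alternatives. The deposited RPKM values served to compare levels between genes only, and the counts on genes make up 77.2% to 81.5% of the totals behind them. CPM was TMM-scaled, and likeness used log2 CPM with a prior count of 2. Scripts were tested on simulated data. With 200 genes changed 4-fold between lines, edgeR called 88 of them and 7 unchanged genes, and DESeq2 called 149 and 88. Between sites these numbers were 58 and 0 for edgeR and 133 and 86 for DESeq2. In the simulation edgeR thus missed many changed genes and DESeq2 called many unchanged ones, a limit on the calls given here. Tables were made with Python 3.11.15. Replicates are different mice.

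The 9 members and all gene lists were chosen with earlier results of these data known. By rule the 9 members, the 3 genes of highest mean CPM in each list, any list gene called by edgeR (there were 0) and the 2 genes most like each of the 3 most variable members are named, and others are said to be chosen after their values were seen. In the lists, Adgre1 was matched as Emr1. Alternatives were library sizes alone, upper-quartile scaling, other filters on low counts, halved counts, the table without the ribosomal entry Rn45s (5.28% to 13.3% of counts), site or line as a covariate, tumors of 1 site or line alone and each tumor left out. DESeq2 without each tumor, and counts without tumor 36, were added after seeing the data.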

Additional observations from a re-analysis of the deposited data

Results flagged for a closer look

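Of 17 tests for a tumor far from the other 5, run on the log2 CPM of the 9 members and the summed CPM of 8 marker lists, 1 was past Dixon's limit, and chance alone would give 0.85. The summed smooth muscle and myoepithelial markers of tumor 36 were at 11.18 on the log2 CPM scale, with the next tumor at 9.09. Among the 9 genes none was past the limit, with Vdr in tumor 36 at a gap of 0.434 of its range against a limit of 0.625.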

How the results depend on the processing

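No paired analysis was possible because the tumors of the lines carry different mouse numbers. Between lines edgeR called 0 genes and 0 members under every alternative, and DESeq2 called 420 genes (352 higher, 68 lower) with 1 member, Esr1. Without tumor 13, 18, 25, 27, 29 or 36, DESeq2 called 236, 499, 3650, 460, 731 and 196 genes and from 1 to 2 members. Between sites edgeR called 0 to 567 genes when a tumor was left out, 2 without tumor 25 and 567 without tumor 27, and 0 members each time. DESeq2 called 605 genes (566 higher, 39 lower), and 318, 649, 669, 1492, 731 and 14 without each of the same tumors in that order, with 0 to 2 members. Library sizes alone moved the median log2 difference of all genes between lines from 0.01 to 0.13.

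Under the alternatives planned beforehand, 126 of the members' log2 differences between lines kept direction and call, 1 became a call (Esr1 by DESeq2) and 15 reversed. Between sites 135 kept both and 7 reversed. DESeq2 without each tumor was added later and is not in these counts. Between lines it called Esr1 in all 6 fits, Pgr in 2 and Stat5b in 1, and some members reversed. Between sites it also called members in some fits. With site as a covariate the line differences of Foxa1, Nr3c1 and Vdr became -0.27, -0.14 and -0.49, and with trunk tumors alone -0.26, -0.13 and -0.50. With a tumor left out, edgeR gave between lines -0.26 to 0.42 for Foxa1, -0.11 to 0.39 for Stat5a, -0.11 to 0.25 for Nr3c1 and -0.61 to 2.09 for Vdr, and DESeq2 gave -0.28 to 0.45, -0.11 to 0.37, -0.11 to 0.28 and -0.63 to 2.12 (Stat5a -0.031 without tumor 18 and -0.062 without tumor 27). Between sites Prlr became -0.24 with line as a covariate and -0.23 in FSP1-Cre;NT3 tumors alone. With a tumor left out, edgeR gave between sites -0.61 to 0.66 for Prlr, -0.90 to 0.26 for Stat5a, -0.21 to 0.57 for Foxa1 and -0.64 to 2.64 for Vdr, and DESeq2 gave -0.56 to 0.63, -0.87 to 0.22, -0.24 to 0.59 and -0.67 to 2.66 (Prlr -0.037 without tumor 25). The cause of these changes was not tested. With at least 10 counts in every tumor Pgr was not tested, and with limma on RPKM, which keeps genes with a mean of at least 0.5, Pgr had no value either. Pgr was the only member under 3 counts in any tumor, and for the others the number of tumors limits precision.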
